A study of Mus musculus with 24 samples.

Results

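Transcripts of tumour necrosis factor (TNF) and of its receptor pathway were followed in endothelial cells and microglia sorted from cultured slices of mouse brain. The 10 genes were taken by symbol from the deposited tables: the cytokine Tnf, its receptors Tnfrsf1a and Tnfrsf1b, the adaptors and signalling proteins Tradd, Traf1, Traf2 and Ripk1, the sheddase Adam17, and the survival proteins Cflar and Birc3. All 10 were found among the 20555 genes of each table and all 10 passed the filter on low values, which left 9477 genes in endothelial cells and 11962 in microglia. Slices had received PBS or exosomes, the small membrane vesicles that cells release, at 5 µg per slice over 2 days. The exosomes carried the green membrane dye PKH67 and came from donors labelled wild type (WT), knock-out 1 (KO1) or knock-out 2 (KO2). The series title names tumour exosomal CEMIP, but the labels do not name the donor line or the deleted gene, nor the strain, age or number of mice. Every library, PBS included, is labelled as sorted for exosome signal, and the gate used for PBS slices is not explained. The outer ring of each slice was used, so the libraries describe cells in culture after enzymatic digestion.

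Of 24 labelled libraries 21 were analysed. Endothelial cells (CD31+, CD45-) gave 3 PBS, 2 WT, 3 KO1 and 2 KO2 libraries, and microglia (CD45+ with little CD11b or CD49d) gave 2 PBS libraries and 3 of each exosome group. Not analysed here were 2 endothelial libraries, WT C and KO2 A, and 1 microglia library, PBS C. The meaning of the letters A, B and C is not given, so p-values measure the spread between these libraries, which may be technical. Normalised counts summed to 25.7 to 28.0 M in the libraries of endothelial cells and to 27.3 to 29.9 M in those of microglia. Pecam1, which encodes CD31, stood at 42620 to 56200 normalised counts in endothelial cells and at 0 to 283 in microglia. In the endothelial libraries 11 endothelium markers summed to 187238 to 222579 and 10 choroid plexus markers to 64.8 to 284411. There 7 astrocyte markers summed to 8751 to 41434, with 1 to 3 of them at 100 counts or more. The microglia held C1qb (2216 to 8952) and Csf1r (697 to 2042), whereas the defining microglia genes P2ry12 (0 to 12) and Cx3cr1 (0 to 156) were at or near 0. Other microglia genes were present at low levels, with a median of 253 for Sall1 (0 to 1212), 613 for Siglech (47.2 to 1001) and 111 for Tmem119 (0 to 432). Of the border-associated macrophage genes, Cd163 and Cbr2 were at 0 in every microglia library, while Pf4 stood at 368 to 4924 and Ms4a7 at 103 to 1738. Oligodendrocyte markers (7 genes) summed to 2587 to 8453 in the microglia libraries, with 1 to 3 of them at 100 counts or more. The 10 choroid plexus markers summed there to 15.5 to 10455, highest in KO2 B (10455) and PBS A (5729).

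TNF is made as a membrane-bound trimer that ADAM17 cuts loose, and macrophages, microglia included, are among its main sources in the brain. TNFR1 (Tnfrsf1a), present on most cells, binds TRADD, RIPK1, TRAF2 and the cIAP ubiquitin ligases, and this complex either drives NF-kB and MAP kinases or turns to caspase-8, which c-FLIP (Cflar) holds in check. TNFR2 (Tnfrsf1b) lacks a death domain, is found chiefly on immune and endothelial cells and signals through TRAF2 and TRAF1.

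The cytokine and TNFR2 followed each other over the microglia libraries, so the sequences just upstream of these genes are shown. They come from the RefSeq promoter table on GRCm38.p6, are written 5′ to 3′ on the gene's own strand and end at the base before the first transcribed one. Tnf (gene 21926) lies at chr17:35199367-35202007 and Tnfrsf1b (gene 21938) at chr4:145212368-145246870, both on the minus strand, so the printed windows are chr17:35202008-35202257 and chr4:145246871-145247120. Capitals mark matches on either strand to the TATA motif TATAAA or to GAGGAA, the core of sites for the macrophage factor PU.1.
Tnf: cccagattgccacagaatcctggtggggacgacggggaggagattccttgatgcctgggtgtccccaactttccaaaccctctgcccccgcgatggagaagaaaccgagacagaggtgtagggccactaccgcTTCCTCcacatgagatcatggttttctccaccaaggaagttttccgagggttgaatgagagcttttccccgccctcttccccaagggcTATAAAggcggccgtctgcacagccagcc
Tnfrsf1b: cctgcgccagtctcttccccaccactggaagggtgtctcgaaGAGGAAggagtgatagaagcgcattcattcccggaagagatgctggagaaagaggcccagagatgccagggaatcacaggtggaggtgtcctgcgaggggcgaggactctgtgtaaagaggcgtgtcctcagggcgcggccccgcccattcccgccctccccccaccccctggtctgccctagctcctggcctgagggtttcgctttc
The TATA match of Tnf begins at position -29, counted back from the first transcribed base, and its GAGGAA match, which lies on the other strand, at -117. The GAGGAA match of Tnfrsf1b begins at -208. Of 32851 RefSeq promoters of the same 250 bases, 12.4% hold TATAAA and 23.3% hold GAGGAA. The NF-kB motif GGGNNNTTCC (4.65% of promoters) and the AP-1 motif TGANTCA (6.75%) were searched on both strands too and have no match in these windows. The motifs were chosen with these sequences known, none of the marked matches overlap, and a match is a description of the letters only.

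Per kilobase of the longest annotated transcript, Tnf and Tnfrsf1b were the most abundant of the 10 in microglia. Tnf had a median of 4476 normalised counts per kb (2191 to 8209 over 11 libraries) and Tnfrsf1b one of 4411 (2587 to 7253), and these ranges overlapped almost wholly. Tnfrsf1a followed at a median of 1365 per kb (1115 to 1589), below every library's Tnf and Tnfrsf1b. Adam17 (867) and Traf2 (782) came next, then Cflar (458), Tradd (457) and Birc3 (352), and the ranges of neighbours in this order overlapped. Ripk1 (191) and Traf1 (11.7, range 1.6 to 86.6) were lowest, and microglia values as low as those of Traf1 are approximate.

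Endothelial cells had the opposite receptor order. Tnfrsf1a led with a median of 3514 normalised counts per kb (2372 to 4406 over 10 libraries), ahead of Tnfrsf1b at 1076 (337 to 3092). Traf2 (770), Adam17 (687), Birc3 (657), Ripk1 (398), Cflar (290) and Tradd (282) lay between, each overlapping its neighbour. Tnf had a median of 97.1 per kb (0.586 to 533) and Traf1 one of 70.9 (5.75 to 336). Within each library the ratio of Tnfrsf1b to Tnfrsf1a per kb lay between 0.0883 (KO1 C) and 0.702 (WT A) in endothelial cells and between 1.98 (PBS A) and 5.24 (WT A) in microglia. The ranges of the cell types therefore did not overlap. Both tables were normalised separately, so levels were not tested between cell types, and transcript length differs between isoforms.

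**Figure D1:**
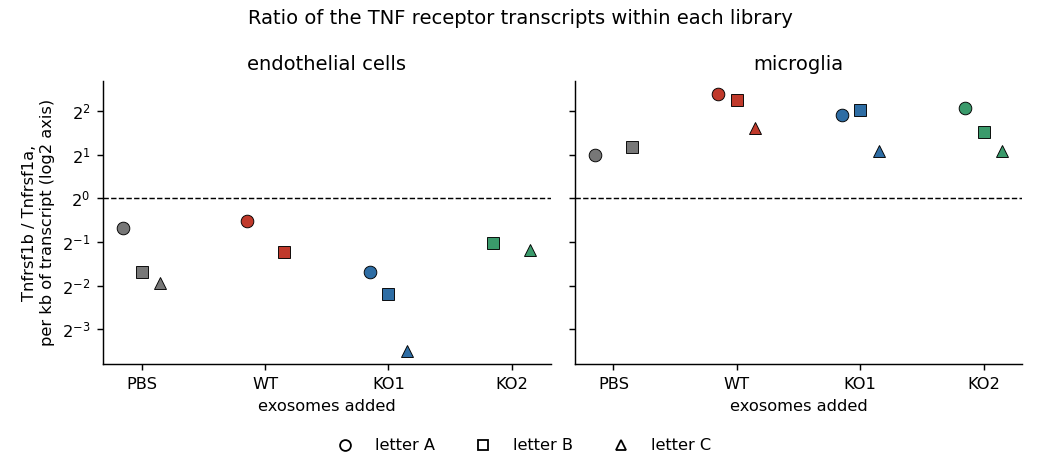
Ratio of Tnfrsf1b to Tnfrsf1a normalised counts per kb of transcript in each library (log2 axis, dashed line at a ratio of 1) by exosome group, with marker shape for the letter. Endothelial libraries lie below 1 (0.0883 to 0.702) and microglia libraries above it (1.98 to 5.24).

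Tnf in microglia stood at 3592 and 4806 normalised counts in PBS A and B. With WT exosomes it stood at 13342 in A, 13454 in B and 4616 in C. With KO1 exosomes the values were 8967, 8267 and 4468, and with KO2 exosomes 9589, 7336 and 4893, in A, B and C. Thus the 6 exosome libraries lettered A or B (7336 to 13454) lay above both PBS libraries, while the 3 lettered C (4468 to 4893) lay in and just above the PBS range. Within letters Tnf was 3.71 times PBS with WT in A and 2.8 times in B, 2.5 and 1.72 times with KO1, and 2.67 and 1.53 times with KO2.

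Tnfrsf1b showed the same division. It stood at 12038 and 11817 normalised counts in PBS A and B, at 24920, 27693 and 13035 with WT in A, B and C, at 22439, 20882 and 9907 with KO1, and at 24041, 16841 and 9877 with KO2. The A and B exosome libraries lay at 16841 or more, and KO1 C and KO2 C lay below PBS. Within letters its ratio to PBS ranged from 1.43 to 2.34 over 6 pairs. Tnfrsf1a (gene 21937, chr6:125349723-125362483) stayed within 2403 to 3426 in all 11 libraries, and 2 of 6 pairs were higher than PBS (ratios 0.784 to 1.14).

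**Figure D2:**
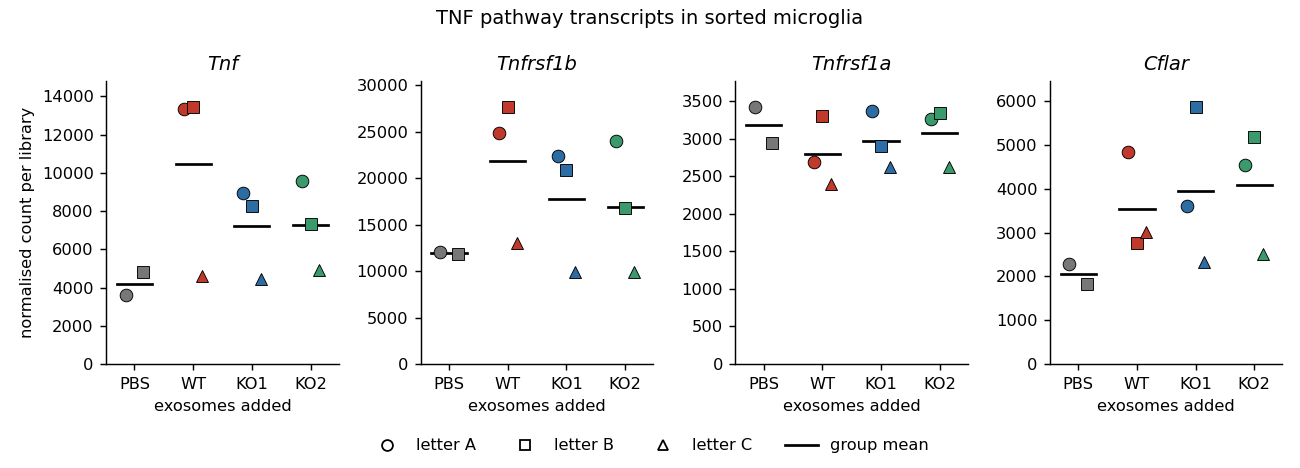
Normalised counts of Tnf, Tnfrsf1b, Tnfrsf1a and Cflar in each microglia library (linear axis from 0) by exosome group, with the letter as marker shape and the group mean as a line. For Tnf and Tnfrsf1b the A and B libraries with exosomes stand above all PBS and C libraries, while Tnfrsf1a spans only 2403 to 3426.

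Cflar, the caspase-8 brake (gene 12633, chr1:58711311-58758884), was the other member above same-letter PBS in all 6 microglia pairs. It stood at 2282 and 1815 in PBS A and B, at 4836, 2756 and 3009 with WT in A, B and C, at 3617, 5870 and 2323 with KO1, and at 4549, 5189 and 2517 with KO2. The lowest exosome value (2323, KO1 C) was close to PBS A, so the groups were separate by a small gap. Its ratios to same-letter PBS ran from 1.52 to 3.23. Over all genes tested, 6.6% were higher than PBS in all 6 pairs and 7.46% lower, against 3 and 0 of the 10 members. Of all genes, 1.21% had every A and B exosome library above every PBS and C library, and so had Tnf and Tnfrsf1b. This division was drawn from these 2 genes, whose values followed each other (Pearson r = 0.943), so the share does not test it. The pairs share their PBS library, and no PBS C library was analysed, so in letter C exosomes could not be compared with PBS.

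**Figure D3:**
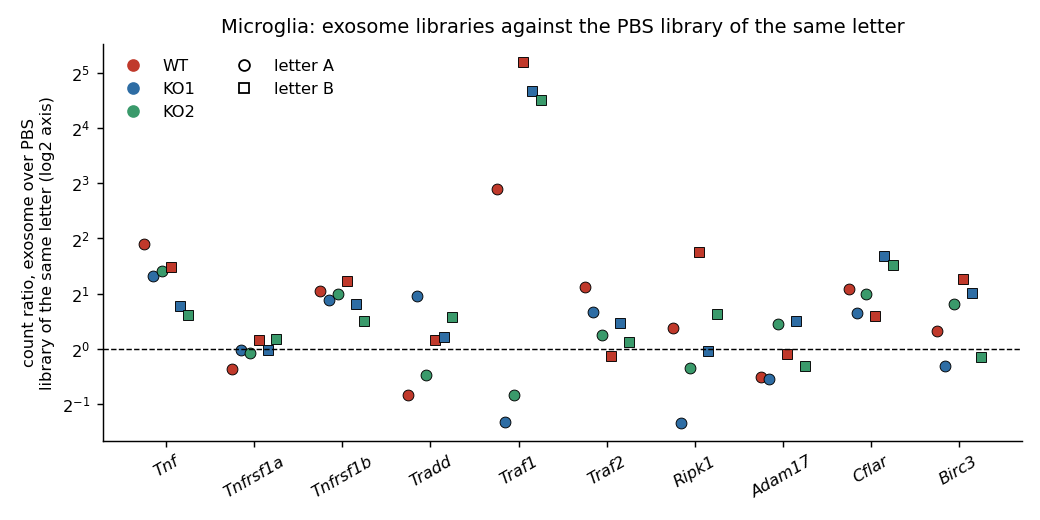
Ratio of normalised counts in each microglia exosome library to the PBS library of its letter (log2 axis, dashed line at 1) for the 10 genes, coloured by exosome group. The 6 points of Tnf, Tnfrsf1b and Cflar lie above 1, and the high Traf1 ratios rest on a PBS B value of 5.49 counts.

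Markers of another macrophage type moved with the letters. Border-associated macrophage markers (7 genes, carried by Pf4 and Ms4a7) summed to 2081 and 1536 in the PBS microglia libraries, to 2180 to 6158 in the exosome libraries lettered A or B, and to 702 to 1158 in those lettered C. Of these 7 markers 2 or 3 reached 100 counts per library and 3 to 5 were at 0. Their part in the Tnf, Tnfrsf1b and Cflar levels was not tested. In a bulk library fewer cells of a type and less RNA per cell cannot be told apart.

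In the fit across all microglia genes (limma with Benjamini-Hochberg adjustment, threshold 0.05), 0 of 10 members were called for WT minus PBS, where 0% of all genes were called and 614 of 11962 had an unadjusted p under 0.05. On the deposited variance-stabilised log2 scale Tnf differed by 0.98 (SE 0.389, 95% interval 0.12 to 1.83, unadjusted p = 0.0282, limma adjusted p = 0.904). Tnfrsf1b differed by 0.79 (SE 0.426, interval -0.14 to 1.73, limma adjusted p = 0.948) and Tnfrsf1a by -0.12 (SE 0.134, interval -0.41 to 0.18). With letters A and B only, the differences were 1.41 for Tnf (SE 0.175, limma adjusted p = 0.148) and 1.13 for Tnfrsf1b (SE 0.2, limma adjusted p = 0.422). The 10 members had 7 positive and 3 negative differences and a median of 0.19, beside 0.00 for all genes. Tnfrsf1b, Ripk1 and Cflar had every WT library above both PBS libraries, as had 8.29% of all genes, and no member had every WT library below, as had 9.3%.

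The authors' own comparison of the microglia groups lists Tnf and Tnfrsf1b and none of the other 8 members. It lists 238 of the 20555 genes with deposited values. In the authors' deposited table, named for a likelihood ratio test, Tnf has a mean of 7573 normalised counts and an adjusted p = 5e-07 (rank 27 of 238). Tnfrsf1b has a mean of 17607 and an adjusted p = 1.98e-08 (rank 20) in the authors' deposited table. A likelihood ratio test can ask for any difference among groups, but the terms of this one are not given in the sources used here. It may therefore ask another question than the limma F test. The limma F test over the 4 groups called 0 members and 0% of genes (477 at an unadjusted p under 0.05).

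Between knockout and WT exosomes, microglial Tnf stood lower with knockouts in letters A and B and close to WT in C. The ratios of KO1 to WT were 0.672, 0.614 and 0.968 in A, B and C, and those of KO2 to WT 0.719, 0.545 and 1.06. Tnfrsf1b lay below WT in all 6 pairs, at ratios of 0.608 to 0.965. So did Ripk1, the kinase at the branch of survival and death signalling, at 0.289 to 0.983, with the smallest gaps in letter C. Ripk1 stood at 1690, 2202 and 1435 normalised counts with WT in A, B and C, at 509, 636 and 1233 with KO1 and at 1019, 1012 and 1410 with KO2, while PBS A and B held 1289 and 654. Every knockout library was thus below every WT library for Ripk1, as for 0.861% of all genes, and for no member was every knockout library above WT (0.836% of genes). Within letters 3.14% of genes were lower than WT in all 6 pairs and 2.86% higher, against 2 members lower and 1, Tradd, the TNFR1 adaptor, higher (1.03 to 3.43).

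None of these differences was called: for knockout exosomes (KO1 and KO2 averaged) minus WT in microglia the fit called 0 members and 0% of genes (388 at an unadjusted p under 0.05). Ripk1 differed by -0.35 (SE 0.117, 95% interval -0.60 to -0.09, unadjusted p = 0.0123, limma adjusted p = 1). Tnf differed by -0.40 (SE 0.301, interval -1.06 to 0.26) and Tnfrsf1b by -0.35 (SE 0.33, interval -1.07 to 0.37). With letters A and B only, Tnf differed by -0.60 (SE 0.152, unadjusted p = 0.00515, limma adjusted p = 1). When 1 library was left out the Tnf difference lay between -0.83 (without WT C) and -0.17 (without WT B), with -0.18 without WT A. That of Tnfrsf1b lay between -0.69 (without WT C) and -0.14 (without WT B), and it was -0.22 without WT A, -0.17 without KO1 C and -0.18 without KO2 C. Members split evenly, with 5 above and 5 below 0 and a median of -0.05, beside 0.00 for all genes.

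Knockout exosomes against PBS gave 0 called members in microglia, where 0.00836% of genes were called (1 gene, Pip4k2c, with 612 at an unadjusted p under 0.05). Tnf differed by 0.58 (SE 0.348, interval -0.18 to 1.34), Tnfrsf1b by 0.44 (SE 0.381, interval -0.39 to 1.28) and Cflar by 0.55 (SE 0.241, unadjusted p = 0.0439, limma adjusted p = 0.964). These fits set knockout libraries of letters A, B and C against PBS A and B. With letters A and B only, Tnf differed by 0.81 (SE 0.152, limma adjusted p = 0.348). Tnfrsf1b then differed by 0.79 (SE 0.173, limma adjusted p = 0.43) and Cflar by 0.76 (SE 0.203, limma adjusted p = 0.598). Cflar alone of the members had all 6 knockout libraries above both PBS libraries, as had 3.26% of genes, and no member had all below (3.57%). This comparison shares its PBS libraries with WT minus PBS and its knockout libraries with the comparison to WT. KO1 minus KO2 called 0 members and 0% of genes (430 at an unadjusted p under 0.05), and Tnf differed by -0.01 (SE 0.348, interval -0.77 to 0.75).

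The remaining microglia members varied without a common direction. Traf2, the ubiquitin ligase adaptor shared by both receptors, ranged from 1842 to 4347 normalised counts, with its highest value in WT A. Adam17 ranged from 2498 to 5896, Birc3, which encodes cIAP2, from 413 to 1939, Tradd from 587 to 2015, and Traf1, an adaptor without a RING domain, from 5.49 to 298. For WT minus PBS their log2 differences were 0.17 (Traf2), -0.14 (Adam17), 0.16 (Birc3), -0.09 (Tradd) and 0.21 (Traf1).

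Endothelial Tnf was low and uneven. It stood at 202, 103 and 117 normalised counts in PBS A, B and C and at 462 and 1.75 with WT exosomes (A and B). Counts in KO1 A, B and C were 1.05, 315 and 0.96, and KO2 B and C held 874 and 557. WT B, KO1 A and KO1 C were thus near 0, both KO2 libraries were the highest of all 10, and WT and KO1 each held values on both sides of PBS. The share of all genes with both KO2 libraries highest was not computed. The microglia markers in these libraries (11 genes) summed to 61.3 to 3044. Their sum was 3044 in WT B (Tnf 1.75), 2425 in KO2 B (Tnf 874) and 61.3 in KO1 A (Tnf 1.05). Their part in the Tnf levels was not tested.

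**Figure D4:**
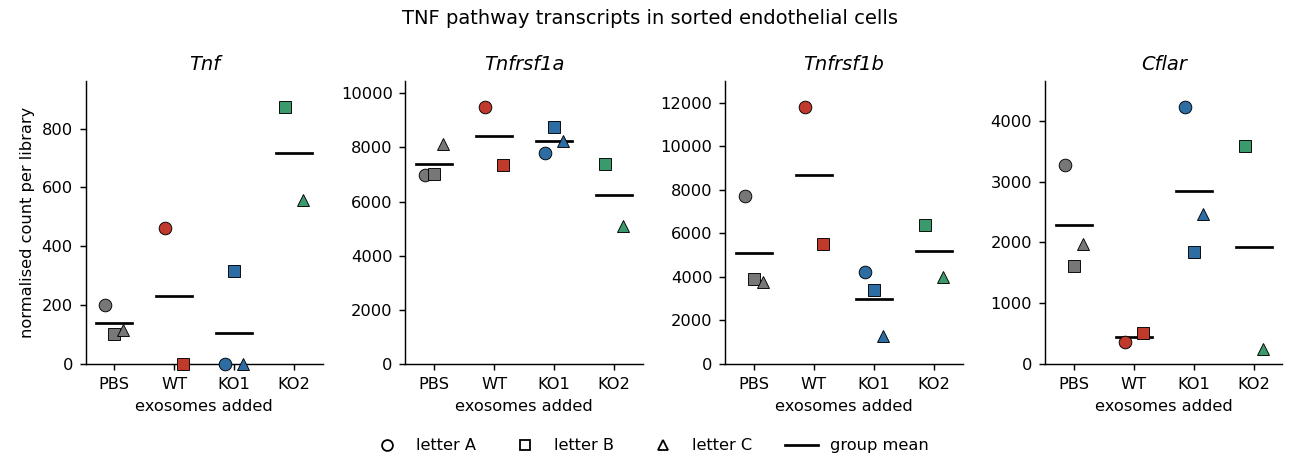
Normalised counts of Tnf, Tnfrsf1a, Tnfrsf1b and Cflar in each endothelial library (linear axis from 0) by exosome group, with the letter as marker shape and the group mean as a line. Both WT libraries of Cflar (366 and 517) lie below the 3 PBS libraries (1607 to 3268), and Tnf is at 1.75 or less in WT B, KO1 A and KO1 C.

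The endothelial receptors differed in how much they varied. Tnfrsf1a stood at 6994 to 8137 normalised counts in PBS and 9499 and 7346 in WT, at 7782 to 8747 in KO1 and at 7370 and 5114 in KO2. KO1 lay above both KO2 libraries, and every other pair of groups overlapped. For KO1 minus KO2 the fitted Tnfrsf1a difference was 0.16 (SE 0.0908, interval -0.04 to 0.36). The share of all genes that separate KO1 from KO2 was not computed, so no result is read from this separation. Tnfrsf1b stood at 7694, 3885 and 3775 in PBS A, B and C, at 11807 and 5504 with WT (A and B), at 4241, 3388 and 1287 for KO1 in these letters, and at 6387 and 3976 in KO2 B and C. WT A was its highest library and KO1 C its lowest. Within letters WT held 1.53 and 1.42 times the PBS value in A and B, KO1 0.551, 0.872 and 0.341 times in A, B and C, and KO2 1.64 and 1.05 times in B and C.

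Endothelial Cflar was lower in both WT libraries than in every PBS library. In PBS A, B and C it stood at 3268, 1607 and 1977 normalised counts, and WT had 366 in A and 517 in B. KO1 A, B and C held 4232, 1836 and 2474, and KO2 B and C held 3588 and 254. Both WT libraries lay below all others except KO2 C. Within letters WT held 0.112 and 0.322 times the PBS value in A and B, and the 3 knockout libraries of these letters held 3.56 to 11.6 times the WT value.

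For WT minus PBS in endothelial cells the fit called 0 of 10 members and 0.0106% of all genes (1 of 9477, Map4k2, with 971 at an unadjusted p under 0.05). Cflar differed by -0.37 on the deposited scale (SE 0.16, 95% interval -0.73 to -0.02, unadjusted p = 0.0387, limma adjusted p = 0.471). That scale has a high floor in endothelial cells and understates ratios of counts: on log2(count + 10) the Cflar difference was -2.30. Tnfrsf1b differed by 0.28 (SE 0.166, interval -0.09 to 0.64), which became 0.05 without WT A and 0.50 without WT B. Tnfrsf1a differed by 0.08 (SE 0.0908, interval -0.12 to 0.27), and the interval for Tnf ran from -0.24 to 0.23. Choroid plexus markers summed to 187972 in WT A and 173230 in WT B, beside 64.8 to 4730 in PBS, and their part in these differences was not tested. Cflar was the 1 member with both WT libraries below all PBS libraries, as were 18.4% of genes, and Tradd the 1 with both above, as were 16.6%. These counts are near the share over all genes. No member was on one side of same-letter PBS in all 7 exosome libraries, against 3.56% of genes higher and 3.68% lower.

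For knockout minus WT in endothelial cells 0 members and 0.0106% of genes were called (Zfp46, with 882 at an unadjusted p under 0.05). Cflar differed by 0.34 (SE 0.147, interval 0.02 to 0.67, unadjusted p = 0.0392, limma adjusted p = 0.516) and Tnfrsf1b by -0.39 (SE 0.153, interval -0.73 to -0.05, unadjusted p = 0.0265, limma adjusted p = 0.474). Letter C was present in the knockouts (KO1 C and KO2 C) but not in WT. With letters A and B only, where KO2 B stood alone for KO2, the differences were 0.51 for Cflar and -0.27 for Tnfrsf1b. When 1 library was left out the Cflar difference lay between 0.19 (without KO2 B) and 0.50 (without KO2 C), and that of Tnfrsf1b between -0.62 (without WT B) and -0.16 (without WT A). KO2 B was however above WT B for Tnfrsf1b, at a ratio of 1.16, while KO1 held 0.359 and 0.616 times WT in A and B. No member had all knockout libraries above WT (4.82% of genes) or below it (4.83%). Cflar was higher than WT in all 3 same-letter pairs, as were 16.6% of genes, and no member was lower in all 3 (15.9%). The authors' deposited table of endothelial genes lists 1 member, Tnfrsf1b, with a mean of 5194 normalised counts and an adjusted p = 0.0318 (rank 303 of 362), and the limma F test called 0 members and 0% of genes (798 at an unadjusted p under 0.05). The authors' table lists 362 of the 20555 genes with deposited values.

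Knockout minus PBS in endothelial cells gave 0 called members and 0% called genes (520 at an unadjusted p under 0.05), and no member had all 5 knockout libraries above PBS (2.41% of genes) or below (2.64%). KO1 minus KO2 likewise called 0 members and 0% of genes (611 at an unadjusted p under 0.05). There Tnf differed by -0.29 (SE 0.105, unadjusted p = 0.0188, limma adjusted p = 0.697) and Traf2 by -0.35 (SE 0.114, unadjusted p = 0.011, limma adjusted p = 0.638). Traf2 stood at 1642, 1840 and 348 normalised counts in KO1 A, B and C and at 3468 and 3381 in KO2 B and C, beside 2239 to 3175 in PBS and 1282 and 2655 in WT. The remaining endothelial members were Ripk1 (1363 to 3943), Adam17 (1465 to 5779), Birc3 (984 to 3589), Tradd (355 to 1085) and Traf1 (19.8 to 1153), and none of them had an unadjusted p under 0.05 in any contrast.

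**Figure D5:**
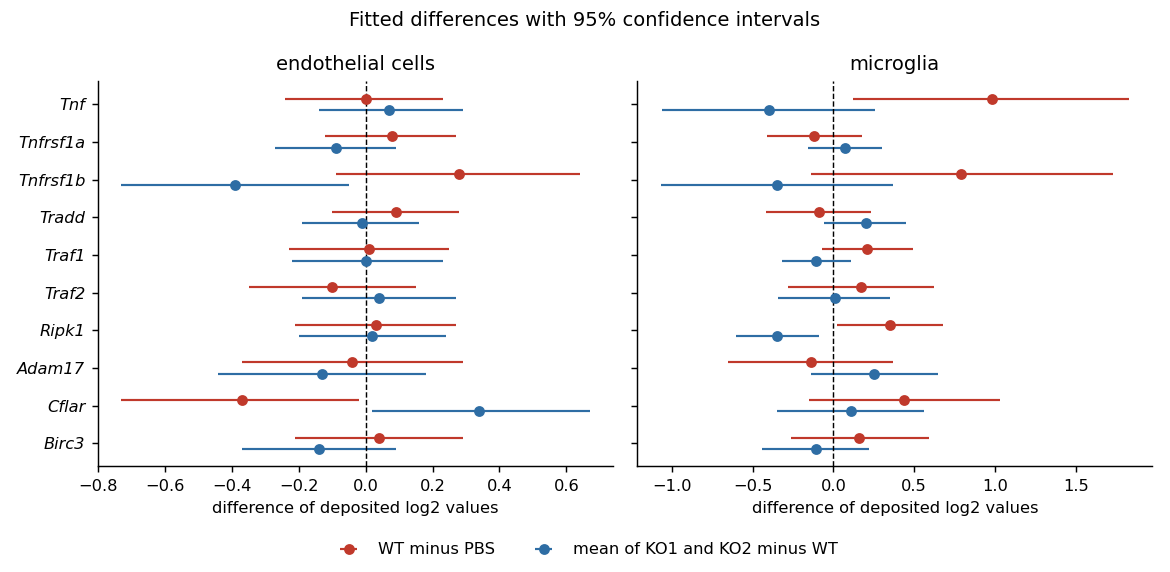
Differences of deposited log2 values for the 10 genes with 95% confidence intervals from limma, for WT minus PBS and for the average of both knockouts minus WT, in endothelial cells and microglia (the axes differ in range). The widest intervals are those of Tnf and Tnfrsf1b in microglia, and none of the differences passed adjustment over all genes.

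Pathway genes outside the 10 were taken from lists, and no member of any list was called in any contrast with limma. Of the 15 genes of TNF production and shedding, all tested in microglia, 8 were higher and 7 lower for WT minus PBS. Frmd8, which holds the ADAM17 sheddase complex at the cell surface, was listed at 0 in both PBS libraries, at 654 to 1353 with WT and at 0 to 884 with knockouts (log2 difference of 1.12 for WT minus PBS, SE 0.266, limma adjusted p = 0.729). Of 21 genes of the receptor complex and cell death tested in microglia, 13 were higher and 8 lower, with a median of 0.13. Casp8, the caspase that c-FLIP restrains, stood at 1325 to 1617 in PBS and 2216 to 2432 with WT (0.31, SE 0.131, limma adjusted p = 0.915). Tnfaip3, the NF-kB feedback enzyme A20, stood at 8377 to 11782 and at 12892 to 25272 (0.82, SE 0.359, limma adjusted p = 0.94). Frmd8, Casp8 and Tnfaip3 were named for the size of their statistics. Of all genes, 8.29% had every WT library above both PBS libraries.

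The downstream kinase lists had more members above PBS than below in microglia, none of them called. Of the IKK and NF-kB list 9 were higher and 5 lower for WT minus PBS (median 0.08), and of the JNK and p38 list 9 were higher and 4 lower (median 0.19). Map2k3, a kinase upstream of p38, stood at 2428 to 3841 in PBS and at 4589 to 6118 with WT (0.54, SE 0.183, limma adjusted p = 0.896). It was named for the size of its statistic, and 8.29% of all genes lay wholly above PBS with WT. Of the list of genes that TNF induces in endothelium, 21 were tested in microglia. For WT minus PBS 16 were higher and 5 lower (median 0.47, beside 0.00 for all genes), 2 of these 16 at an unadjusted p under 0.05. Of all genes 50.5% were higher, and 5.13% had an unadjusted p under 0.05. For knockout minus WT 3 were higher and 18 lower (median -0.21), none at an unadjusted p under 0.05, and 50.1% of all genes were higher. Against PBS, knockouts had 15 higher and 6 lower (median 0.30), where 50.8% of all genes were higher. These comparisons share libraries.

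In endothelial cells, the same TNF-inducible list had 18 of 22 tested genes higher for WT minus PBS (median 0.38, beside -0.011 for all genes), 6 of these 18 and 1 of the 4 lower at an unadjusted p under 0.05. Of all genes tested 46.9% were higher, and 10.2% had an unadjusted p under 0.05 in either direction. For knockout minus WT 6 were higher and 16 lower (median -0.14), where 51.1% of all genes were higher. Against PBS, knockouts had 17 higher and 5 lower (median 0.21), where 47.3% of all genes were higher. These comparisons share libraries. By statistic, Ptgs2, Cxcl2 and Ccl5 led the list for WT minus PBS. Ccl5, a leukocyte attractant, stood at 43.7 to 239 normalised counts in PBS and at 1359 and 2904 with WT (0.50, SE 0.176, limma adjusted p = 0.407). With WT, 16.6% of all genes lay wholly above PBS. Icam1, the leukocyte adhesion molecule, stood at 21574 and 31106 with WT and at 7232 to 22925 with knockouts (-0.50 for knockout minus WT, SE 0.23, limma adjusted p = 0.539). Choroid plexus markers (10 genes) summed to 64.8 to 4730 in the PBS endothelial libraries, and to 168083 to 284411 with exosomes in letters A and B. In letter C the sums were 2938 for KO1 and 17539 for KO2. Their part in these differences was not tested.

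Other endothelial pathway genes shifted in both directions. Of 21 receptor complex genes 13 were higher and 8 lower for WT minus PBS. Birc2, which encodes cIAP1, stood at 702 to 1756 in PBS and at 0 and 251 with WT (-0.38, SE 0.0972, limma adjusted p = 0.28), and Traf3, which restrains non-canonical NF-kB signalling, at 1079 to 1616 and at 0 and 106 (-0.43, SE 0.114, limma adjusted p = 0.29). Mlkl, the executioner of necroptosis, stood at 930 to 1557 in PBS and at 2269 and 5762 with WT (0.37, SE 0.108, limma adjusted p = 0.348). Birc2, Traf3 and Mlkl were named because their statistics were the largest of this list. Of all genes, 18.4% had both WT libraries below all PBS libraries and 16.6% had both above. The production and shedding list split 7 higher to 6 lower, the IKK and NF-kB list 4 to 10 and the JNK and p38 list 6 to 7. Of the other ligands of the TNF superfamily 2 of 14 passed the filter on low values in endothelial cells and 7 of 14 in microglia, and of the other receptors 11 and 13 of 22.

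Over the 11 microglia libraries, the genes whose deposited log2 values were most alike to those of Tnf were Smad7 (Pearson r = 0.944), Tnfrsf1b (0.943) and Mmp14 (0.940). For Tnfrsf1b they were Ets2 (0.960), Cxcl1 (0.955) and Acod1 (0.954), and for Tnfrsf1a Incenp (0.896), Nfrkb (0.895) and Crlf2 (0.888). Over the 10 endothelial libraries the closest to Tnf were Coa8 (0.933), Vasn (0.931) and Gfm2 (0.916). For endothelial Tnfrsf1a they were Scarb1 (0.916), Bod1 (0.892) and Tmem189 (0.886), and for Tnfrsf1b Pcdhga10 (0.902), Mterf4 (0.895) and Ralb (0.895). Endothelial Tnf and Tnfrsf1b had a correlation of 0.48. These correlations describe libraries that share groups and letters, and they were picked as the highest of all genes tested.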

How the data were processed

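Per the submitters' processing notes, FastQC 0.11.7, Trimmomatic 0.38, Salmon 0.10.0, DESeq2 1.18.1 and GRCm38.p6 were used, with no role or order given. For each cell type the authors deposited log2 values that the labels name as variance-stabilised, in which a gene without reads sits at 13.2814 in endothelial cells and 9.8893 in microglia (the floor). They also deposited a list of genes with a mean normalised count (signal), a log2 fold change and its standard error, a test statistic (score) and p-values. Of 20555 gene IDs 20537 matched a RefSeq symbol.

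Normalised counts were recovered from the log2 values, in endothelial cells by the exact inverse and in microglia by a fitted curve (error on held-out genes up to 3.48%, median 0.0388%; not anchored below a mean of 54.3). Differences were tested with limma 3.58.1 (R 4.3.3) with a mean-variance trend, 1 fit per cell type over its whole set of libraries, on genes with a mean at least 0.1 above the floor, and Benjamini-Hochberg adjustment (0.05). The fit was tested on simulated data. Symbols were named by rule: all members, and up to 3 genes of each list by statistic, of which a part is given. The members and lists were chosen with earlier results of these data known. No count model was used, since no raw counts were analysed. Alternatives varied the filter, scale, normalisation, variance model, libraries and letters.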

Additional observations from a re-analysis of the deposited data

Results flagged for a closer look

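Cflar, WT minus PBS, pointed in opposite directions in the cell types: every endothelial WT library lay below every PBS library (difference of -0.37 on the deposited log2 scale, 2 against 3 libraries), and every microglia WT library lay above both PBS libraries (0.44, 3 against 2 libraries). Of all genes, 18.4% lay wholly below PBS with WT in endothelial cells and 8.29% wholly above in microglia. Both tables were normalised separately, and the difference between cell types was not tested. No other member separated the groups in opposite directions in any of the 4 contrasts, and groups of 2 or 3 libraries are too small for a check of single outlying libraries.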

How the results depend on the processing

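The number of members called was 0 in every contrast under every alternative except 1. With the letter entered as a replicate block, microglia WT minus PBS called 2 members, Tnf (1.28, SE 0.195, adjusted p = 0.0457 with limma) and Tnfrsf1b (1.14, SE 0.159, adjusted p = 0.0284). For knockout minus PBS the block gave 0.88 for Tnf (SE 0.176, adjusted p = 0.118 with limma) and 0.79 for Tnfrsf1b (SE 0.143, adjusted p = 0.094), and for knockout minus WT -0.40 for Tnf (SE 0.147, adjusted p = 0.999). It called 19 genes for WT minus PBS, 11 for knockout minus PBS and 6 for the F test in microglia, and 0 for WT minus PBS and for knockout minus WT in endothelial cells. Libraries of the same letter correlated at 0.022 to 0.236 in endothelial cells and at 0.012 to 0.329 in microglia in their deviations from the group means. Those of different letters and groups correlated at -0.236 to 0.123 in endothelial cells and at -0.245 to 0.062 in microglia. Deviations from a group mean sum to 0 within the group, so correlations of different letters offset those of the same letter. The ranges are therefore not independent of each other. The labels do not say that letters pair libraries, so the main fit left letters out, and same-letter ratios are descriptive only.

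Counts of called genes were small and moved with most settings, and the cause was not tested. In the order WT minus PBS, knockout minus WT, knockout minus PBS, KO1 minus KO2 and F test, endothelial counts without a filter were 9, 6, 17, 3 and 15. With the stricter filter WT minus PBS and knockout minus WT had 0 each and KO1 minus KO2 had 1. On log2(count + 1), + 10 and + 50 WT minus PBS had 6, 3 and 2, knockout minus WT 17, 10 and 2, and the F test 3, 2 and 2. With only the groups compared WT minus PBS had 12 and knockout minus WT 0. Without WT B, KO1 B and KO2 B both had 0, and robust moderation gave knockout minus WT 2. Letters A and B only gave 0 for knockout minus WT, 1 for knockout minus PBS and 1 for the F test. In microglia WT minus PBS had 1 without a filter, when centred, quantile normalised or fitted without the trend, and 4 with + 50. Knockout minus PBS had 0 with the stricter filter and with only the groups compared, 5 with + 10 and 9 with + 50. KO1 minus KO2 had 1 without a filter, with + 10 or + 50 and without the trend, and the F test 1 without a filter, 1 with + 10 and 4 with + 50. Leaving out 1 library gave 0 to 4 and 0 to 8 called genes for WT minus PBS and knockout minus WT in endothelial cells (highest without KO1 C and without WT B), and 0 to 2, 0 to 1, 0 to 1 and 0 to 1 for WT minus PBS, knockout minus WT, knockout minus PBS and the F test in microglia.

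Microglial Tnf for WT minus PBS lay between 0.76 and 1.41 when 1 library was left out, highest without WT C, and Tnfrsf1b between 0.59 and 1.13. None of the differences that changed sign was called. Over fits without 1 library, endothelial Tnf ran from -0.15 to 0.14 for WT minus PBS and from -0.07 to 0.22 for knockout minus WT, and for WT minus PBS it was above 0 without PBS A (0.01) or WT B (0.14). Endothelial Tnfrsf1a ran from 0.00 to 0.15 for WT minus PBS and from -0.06 to 0.03 for knockout minus PBS, and Tnfrsf1b from -0.17 to 0.00 for knockout minus PBS. In microglia Tnfrsf1a ran from -0.12 to 0.02 for knockout minus PBS, and for KO1 minus KO2 Tnf ran from -0.22 to 0.24, Tnfrsf1a from -0.10 to 0.02 and Tnfrsf1b from -0.26 to 0.43. Endothelial Tnf also turned to 0.00 when centred, 0.08 when quantile normalised and 0.14 without WT B, KO1 B and KO2 B for WT minus PBS, to -0.13 without those 3 for knockout minus WT, and to -0.64 on log2(count + 1) for knockout minus PBS. With letters A and B only, Tnfrsf1a turned to 0.06 in endothelial cells and 0.01 in microglia for knockout minus PBS (0.01 with the block), and microglial Tnf to 0.03 for KO1 minus KO2.

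Counts limit endothelial Tnf, since 3 libraries hold 1.75 normalised counts or fewer. The microglia count scale is not anchored below a mean of 54.3, so single low values, such as those of Traf1 in some libraries, are approximate.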
